A study of Homo sapiens with 6 samples.

Results

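Mitochondria carry their own ribosome, which translates the few messenger RNAs of the mitochondrial genome into core subunits of the respiratory chain and of ATP synthase. Its RNA comes from the mitochondrial genome, while all of its proteins are encoded in the nucleus, made in the cytosol and imported. The genes of these proteins carry the symbols MRPL for the large subunit, which forms peptide bonds, and MRPS for the small subunit, which decodes the messenger RNA. Because mitochondria descend from bacteria, this ribosome is a recognised off-target of several antibiotics.

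The genes described here were taken by symbol alone, as MRPL or MRPS followed by a number and, for some, a letter from A to C. This gave 76 of the 16953 genes in the authors' deposited table, 49 of the large and 27 of the small subunit. GENCODE 29 lists 78 such symbols; MRPS18B and MRPS24 were not analysed here. The symbol does not always follow the place of the protein: MRPS18A and MRPS30 sit in the large subunit, and MRPS36 is now regarded as a part of the oxoglutarate dehydrogenase complex.

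The study treated H1048, an established human small cell lung cancer line labelled wild type, with ISP-I (isovalerylspiramycin I, a macrolide) at 10 µM or with its solvent DMSO for 48 h, with 3 samples of each. All samples share 1 line and 1 time point, and the samples within each treatment are described by the submitters as biological replicates. In the deposited comparison, 3 libraries lettered D to F are set against 3 lettered A to C. No label used here ties a letter to a treatment or to a sample, so each direction below is that of D to F over A to C and is not named as an effect of the drug, and no values per library, SDs or standard errors are given. All fold changes and adjusted p-values are those of the authors' deposited table, and a gene was called at an adjusted p under 0.05. Among 5 markers of the tuft cell-like type of this cancer, AVIL (-2.31), POU2F3 (-1.71) and SOX9 (-1.25) were lower on the log2 scale in that table. TRPM5 (0.78) and ASCL2 (0.33) were not called. A table of differences does not show the level of these markers, so the cell type was not checked further.

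As examples, 4 start regions follow, from 170 bases before to 30 bases after a RefSeq transcription start (GRCh38.p14), on the strand of the gene. MRPL58 and MRPL38 were among the members with the largest increases, MRPS18A was raised in the small-subunit series, and MRPL42 had the largest decrease. Capitals mark CCGGAAG, a core of the sites of ETS factors such as GABP, and AAGATGGCG, a core of the sites of YY1. Both factors are known for binding at genes of mitochondrial proteins. Each of these 4 regions holds a marked core, so they are not typical of the members. In the members' start windows described below, CCGGAAG occurred in 39.8% and AAGATGGCG in 13.3%. The windows of MRPS2 and MRPS14 hold neither.
MRPL58, chr17:75012500-75012699, plus strand: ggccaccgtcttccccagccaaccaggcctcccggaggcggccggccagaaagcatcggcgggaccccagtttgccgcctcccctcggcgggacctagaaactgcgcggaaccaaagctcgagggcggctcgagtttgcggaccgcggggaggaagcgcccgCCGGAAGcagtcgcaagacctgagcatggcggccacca
MRPL38, chr17:75904855-75905054, minus strand: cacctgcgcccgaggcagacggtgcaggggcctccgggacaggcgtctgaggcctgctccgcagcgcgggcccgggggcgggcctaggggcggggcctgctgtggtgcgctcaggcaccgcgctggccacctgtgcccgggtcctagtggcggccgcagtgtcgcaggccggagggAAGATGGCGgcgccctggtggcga
MRPS18A, chr6:43687762-43687961, minus strand: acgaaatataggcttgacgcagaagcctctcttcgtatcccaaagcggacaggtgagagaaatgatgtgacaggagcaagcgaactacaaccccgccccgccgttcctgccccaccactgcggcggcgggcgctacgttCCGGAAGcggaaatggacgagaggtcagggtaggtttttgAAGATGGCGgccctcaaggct
MRPL42, chr12:93467344-93467543, plus strand: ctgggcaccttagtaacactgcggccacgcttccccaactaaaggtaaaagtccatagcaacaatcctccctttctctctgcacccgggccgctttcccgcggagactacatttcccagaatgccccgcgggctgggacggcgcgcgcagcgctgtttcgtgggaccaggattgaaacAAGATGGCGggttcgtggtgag

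Genes of the mitochondrial ribosome were more often higher than lower in libraries D to F. An adjusted p is listed for 75 members in the authors' deposited table, of which 37 (49.3%) were higher, 7 (9.33%) were lower and 31 were not called. Over all 15976 genes with an adjusted p, 29.7% were higher and 27.9% were lower. The median log2 fold change of these members was 0.37, against 0.05 over all genes, and 57 of the 75 had a positive value. The shift was moderate in size: called members had a median absolute log2 fold change of 0.70, against 0.86 over all called genes. The middle 50% of the members lay between 0.08 and 0.68, a narrower span than the -0.59 to 0.75 of all genes.

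How far the members stood from the background depended on the size of change asked for. At an adjusted p under 0.01, 34 members (45.3%) were higher and 6 (8.0%) lower, beside 25.5% and 24.2% of all genes. With a change of at least 1.5-fold as well as an adjusted p under 0.05, 23 members (30.7%) were higher and 6 lower, beside 21.2% and 19.5%. At 2-fold or more, 8 members (10.7%) were higher and 2 (2.67%) lower, beside 12.8% and 11.3%, so the share of large increases was close to that of all genes and the share of large decreases was below it. Adjusting over every gene of the table left 37 higher and 7 lower members, beside 27.8% and 26.1% of all 16953 genes.

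**Figure D1:**
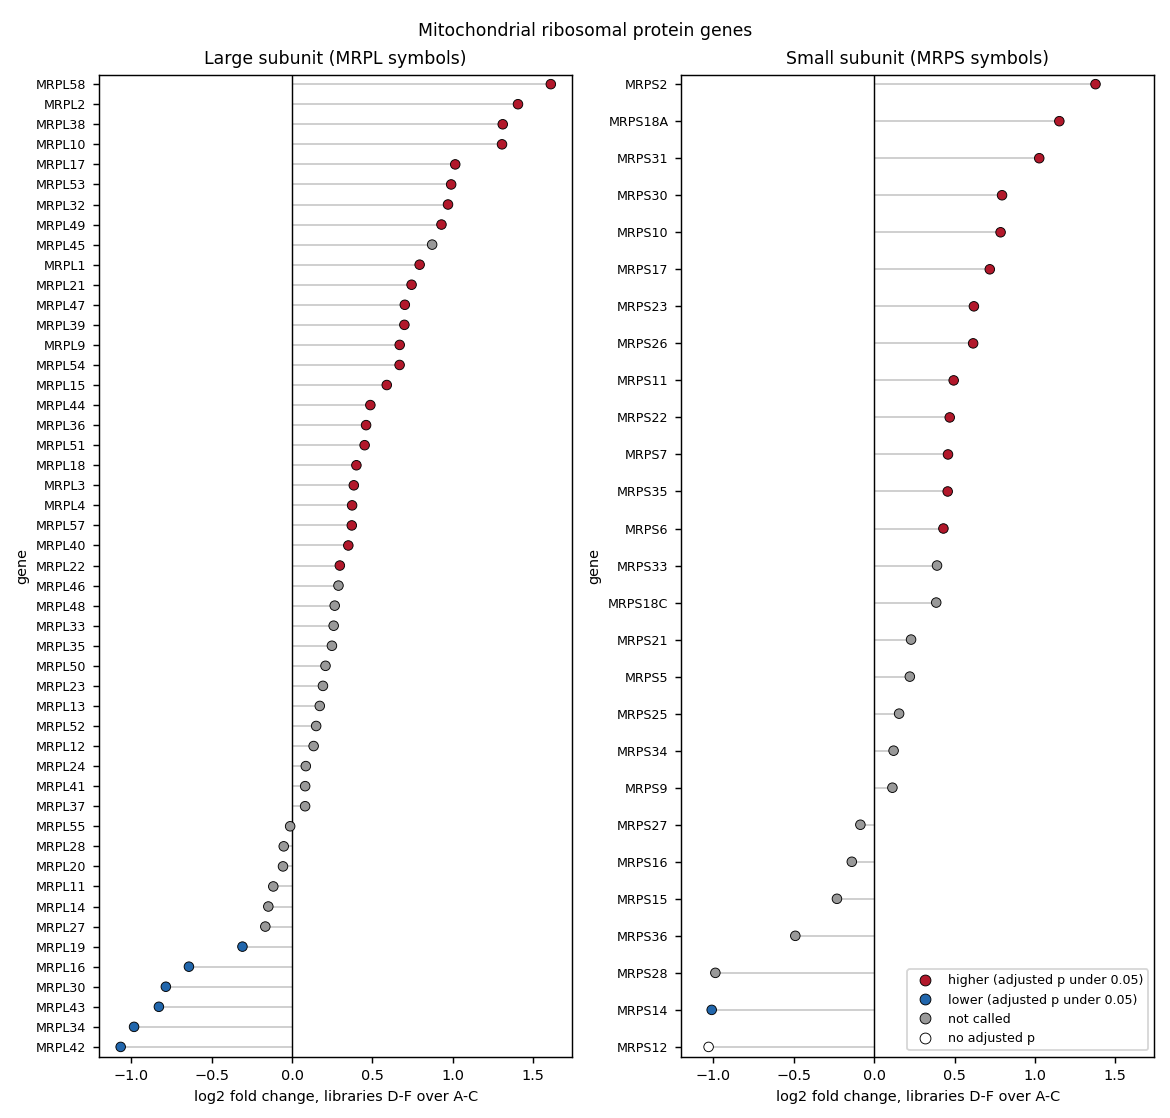
The authors' deposited log2 fold changes (horizontal axis, libraries D to F over A to C) of the 76 genes, 1 per line, for MRPL symbols on the left and MRPS symbols on the right; colour gives the call. Values run from -1.07 for MRPL42 to 1.61 for MRPL58, and most points lie to the right of 0 in both panels.

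Both subunits contributed. Among large-subunit genes 24 of 49 were higher (49.0%) and 6 lower (12.2%) in the authors' deposited table, with a median of 0.30. Among small-subunit genes 13 of 26 with an adjusted p were higher and 1 lower (3.85%), with a median of 0.41. The shares of higher genes were close, and the ranges overlapped almost fully, from -1.07 to 1.61 for the large and from -1.01 to 1.38 for the small subunit. Genes are not replicates of a condition, so the difference between the subunits was not tested. In another grouping, MRPS18A and MRPS30 were moved to the large subunit, MRPS36 was left out, and 5 proteins with other symbols were added (GADD45GIP1 to the large, and DAP3, PTCD3, AURKAIP1 and CHCHD1 to the small subunit). In it, 27 of 52 large-subunit genes were higher (51.9%) and 6 lower (11.5%), with a median of 0.33. Of 27 small-subunit genes with an adjusted p, 12 were higher (44.4%) and 2 lower (7.41%), with a median of 0.39. That small-subunit median was 0.31 when MRPS12, which has no adjusted p, was counted. Which subunit had the larger share of higher genes, by a small margin in the first grouping, thus changed with the grouping.

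The largest increase was that of MRPL58 (chromosome 17, 75012670 to 75021261), a ribosome-bound member of the release factor family that frees stalled peptides. It was 3.05-fold higher in the authors' deposited table (1.61 on the log2 scale, adjusted p = 8.88e-37). MRPL2, whose bacterial counterpart lies beside the peptidyl transferase centre, was 2.65-fold higher (adjusted p = 2.50e-31). MRPL38 of the central protuberance was 2.48-fold higher (adjusted p = 3.39e-36). MRPL10, the base of the stalk that recruits translation factors, was 2.47-fold higher (adjusted p = 5.23e-26). These 4 genes and MRPL17, at the rim of the exit tunnel (1.01 on the log2 scale, adjusted p = 3.32e-13), were the large-subunit members raised at least 2-fold. MRPL53 (0.99), MRPL32 (0.97), which is cleaved by the m-AAA protease before it joins the ribosome, and MRPL49 (0.93) followed.

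In the small-subunit series MRPS2 led (chromosome 9, 135499984 to 135504673), 2.60-fold higher in the authors' deposited table with the smallest p of all members (1.38 on the log2 scale, adjusted p = 2.31e-40). MRPS18A (1.15, adjusted p = 1.38e-12) and MRPS31 (1.03, adjusted p = 1.35e-09) were the others above 2-fold. MRPS30 (0.80), which like MRPS18A sits in the large subunit, and MRPS10 (0.79, adjusted p = 6.18e-14), a protein of the head, came next. The 2 proteins with MRPS symbols that sit in the large subunit were thus among the 4 largest increases of the series. MRPS18A and MRPS18C are paralogs, and MRPS18C, which keeps the bacterial position in the small subunit, was not called (0.39, adjusted p = 0.349).

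The decreases were few, and 6 of the 7 were of the large subunit, which holds 49 of the 75 members with an adjusted p. The shares lower were 12.2% of the large and 3.85% of the small subunit, beside 27.9% of all genes. MRPL42, a protein without a bacterial counterpart (chromosome 12, 93467488 to 93516213), was listed 2.09-fold lower in the authors' deposited table (-1.07 on the log2 scale, adjusted p = 9.85e-19). MRPS14 of the small-subunit head (chromosome 1, 175010789 to 175023425) was 2.01-fold lower (-1.01, adjusted p = 7.74e-15) and was the only member of its series called lower. MRPL34 (-0.98, adjusted p = 7.92e-09), MRPL43 (-0.83, adjusted p = 3.85e-08) and MRPL30 (-0.79, adjusted p = 9.45e-07) were also called lower. MRPL16 (-0.64, adjusted p = 7.82e-07) and MRPL19 (-0.31, adjusted p = 0.0114) were the remaining members called lower. MRPL16, MRPL19, MRPL30 and MRPL34 have bacterial counterparts and MRPL43 has none.

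Most lower members and many higher ones share exonic sequence with a neighbour. By GENCODE 29 the exons of 6 of the 7 lower members overlap those of another annotated gene, as do those of 17 of the 37 higher and 16 of the 31 members that were not called. MRPL43 overlaps SEMA4G and TWNK, MRPS14 overlaps CACYBP, MRPL34 overlaps ABHD8, MRPL19 overlaps GCFC2, MRPL30 overlaps other coding gene models on its own strand, and MRPL42 overlaps the small RNA gene model RN7SL737P. Of the larger increases, the exons of MRPL2 overlap those of KLC4, MRPL38 those of AC087289.3, MRPS2 those of C9orf116, MRPS18A those of RSPH9, MRPL53 those of CCDC142, MRPL32 those of PSMA2, and MRPL49 those of FAU and SYVN1. The exons of MRPL58, MRPL10, MRPL17, MRPS31, MRPS30 and MRPS10 overlap those of no other annotated gene. The sources used here do not say whether reads were counted by strand, so reads of such partners cannot be told apart, and their part in the values was not tested. Among the 35 members with neither an overlap nor a near-identical copy, 20 (57.1%) were higher and 1 (2.86%), MRPL16, was lower. Their median was 0.38. Over all genes, which were not filtered for overlaps or copies, 29.7% were higher and 27.9% lower.

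Some members were not called although called members had fold changes of like or smaller size. MRPL45, which ties the ribosome to the inner membrane, stood at 0.87 with an adjusted p of 0.469, and a stretch of its transcript is near-identical to the pseudogene MRPL45P2. MRPS28 stood at -0.99 (adjusted p = 0.137), MRPL46 at 0.29 (0.603) and MRPS36 at -0.49 (0.100) in the authors' deposited table. MRPL1, at 0.79, was close to MRPL45 in fold yet had an adjusted p of 3.26e-09, so the precision behind equal folds differed widely. On their own strand, the exons of MRPS28 overlap those of the coding gene model AC036214.3, and those of MRPL46 overlap AC013489.1. The exons of MRPL1 and MRPS36 overlap no other annotated gene. The part of such overlaps in these values was not tested. MRPS12, a protein of the decoding site, carries a listed value of -1.03 and an adjusted p of exactly 1. The same value to 3 decimals is listed for 187 genes, of which 2 have an adjusted p below 1, and it is not read here as a measurement of MRPS12.

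By region of the ribosome, increases and genes without a call stood side by side. At the rim of the exit tunnel and its membrane contact, MRPL17 (1.01), MRPL47 (0.70) and MRPL22 (0.30) were higher, and MRPL23 (0.19), MRPL24 (0.09) and MRPL45 were not called. Of the stalk, MRPL10 was higher, while MRPL11 (-0.12) and MRPL12 (0.13), the protein that binds translation factors there, were not called. In the central protuberance MRPL38 (1.31), MRPL18 (0.40) and MRPL40 (0.35) were higher, with MRPL48, MRPL27, MRPL46 and MRPL55 between -0.17 and 0.29 and not called. In the head of the small subunit 4 of 7 genes were higher (MRPS10, MRPS31, MRPS7 and MRPS35), MRPS14 was lower, and MRPS9 and MRPS33 were not called. The share higher was 33.3% for the stalk, 42.9% for the central protuberance and 57.1% for the head. At the exit tunnel it was 3 of 6 genes. Of all members 49.3% were higher, and of all genes 29.7%. Each region holds few genes, and differences between regions were not tested.

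The members include proteins kept from the bacterial ribosome and proteins added in mitochondria. Of the 44 genes with a bacterial counterpart and an adjusted p, 20 were higher (45.5%) and 5 lower (11.4%), beside 29.7% and 27.9% of all genes. They had 30 positive values and a median of 0.25 in the authors' deposited table. Of the 27 mitochondria-specific ones, 14 were higher (51.9%) and 2 lower (7.41%), with 24 positive values and a median of 0.39. The difference between these groups was not tested. MRPL58, MRPS18A, MRPS30 and MRPS36 were left out of this division.

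Ribosomal proteins whose symbols do not begin with MRPL or MRPS were divided. PTCD3, an RNA-binding protein of the small subunit near the messenger RNA entry, was higher (0.83, adjusted p = 1.30e-16 in the authors' deposited table), as was GADD45GIP1 of the large subunit (0.31, adjusted p = 0.0211). CHCHD1 was lower (-0.39, adjusted p = 0.00976). AURKAIP1 (-0.11) and the GTP-binding protein DAP3 (-0.10) of the small subunit were not called.

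The proteins of the cytosolic ribosome, which translates all other messenger RNAs, are named RPL and RPS. Of 81 cytosolic ribosomal protein genes with an adjusted p, RPL and RPS paralogs included, 27 (33.3%) were higher and 13 (16.05%) lower, with a median of 0.18. At 1.5-fold or more, 9 (11.1%) were higher and 1 (1.23%) lower, beside 21.2% and 19.5% of all genes. Large (18 higher and 8 lower of 50) and small (9 and 5 of 31) subunit genes had medians of 0.18 and 0.19. For both ribosomes the share of lower genes was under the 27.9% of all genes. The share of higher genes was near the 29.7% of all genes for the cytosolic ribosome and above it for the mitochondrial one. The difference between the gene groups was not tested.

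**Figure D2:**
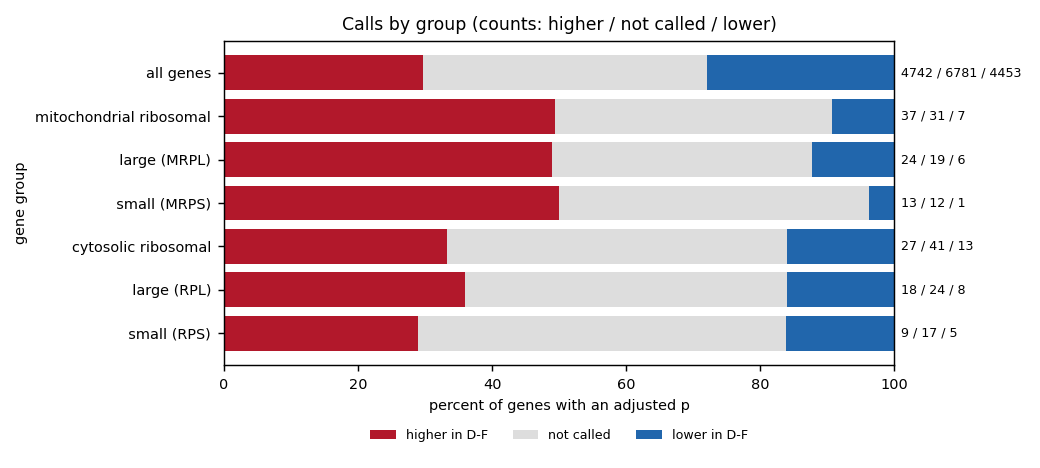
Share of genes (percent of those with an adjusted p, horizontal axis) called higher, not called and called lower in libraries D to F, for all genes and for mitochondrial and cytosolic ribosomal protein genes; the counts stand at the right. Of mitochondrial ribosomal genes 49.3% were higher and 9.33% lower, and of all genes 29.7% and 27.9%.

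Among genes that build the mitochondrial ribosome, increases also outnumbered decreases. Of 29 assembly and rRNA modification genes 17 were higher (58.6%) and 2 lower (6.90%), beside 29.7% and 27.9% of all genes. Their median was 0.39 in the authors' deposited table. The GTPase GTPBP10 (1.19, adjusted p = 1.65e-21), the rRNA methyltransferases MRM3 (1.28, adjusted p = 2.50e-18) and MRM2 (0.95, adjusted p = 1.95e-17) were among the 4 with the smallest p. The other one of these 4, the RNA methyltransferase TRMT2B, was lower (-1.45, adjusted p = 2.03e-19). Listed under 35 symbols, old names included, this list had 29 values.

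Of 17 mitochondrial translation factors 6 (35.3%) were higher and 5 (29.4%) lower, beside 29.7% and 27.9% of all genes. Values were positive for 11 of them, with a median of 0.25. By the authors' deposited table, the recycling factor MRRF was higher (0.83, adjusted p = 7.33e-11). The elongation factor TUFM (-0.56, adjusted p = 1.17e-08), the recycling factor GFM2 (-0.68, adjusted p = 1.80e-07) and the membrane insertase OXA1L (-0.52, adjusted p = 1.24e-06), which receives the new chains, were lower.

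Upstream of these genes, the coactivators PPRC1 (0.93) and PPARGC1A (0.90) and the factor MYC (0.71) were higher and the nuclear receptor ESRRA (-0.59) was lower in the authors' deposited table. In all, 5 of 9 such regulators were higher (55.6%) and 1 lower (11.1%), beside 29.7% and 27.9% of all genes. NRF1 (0.14, adjusted p = 0.314) and GABPA (0.13, adjusted p = 0.345), the DNA-binding factors best known at these promoters, were not called. GABPB1 (0.46, adjusted p = 0.00180) and YY1 (0.20, adjusted p = 0.0283), also of this list, were called higher. Of 6 genes that transcribe the mitochondrial genome, TFB2M (1.41, adjusted p = 8.71e-28), TFAM (0.52, adjusted p = 4.46e-08) and TEFM (0.64) were higher. The polymerase POLRMT (-0.49, adjusted p = 9.13e-06) and MTERF2 (-0.79, adjusted p = 5.90e-05) were lower. Of 17 import and protease genes 9 were higher (52.9%) and 5 lower (29.4%), the latter share near the 27.9% of all genes. TIMM44 (0.87), TIMM17A (0.84) and CLPX (0.83) led this list, with TOMM22 at -0.71. The messenger RNAs that this ribosome translates went the other way, with 10 of 13 lower (76.9%, beside 27.9% of all genes) and a median of -0.68.

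**Figure D3:**
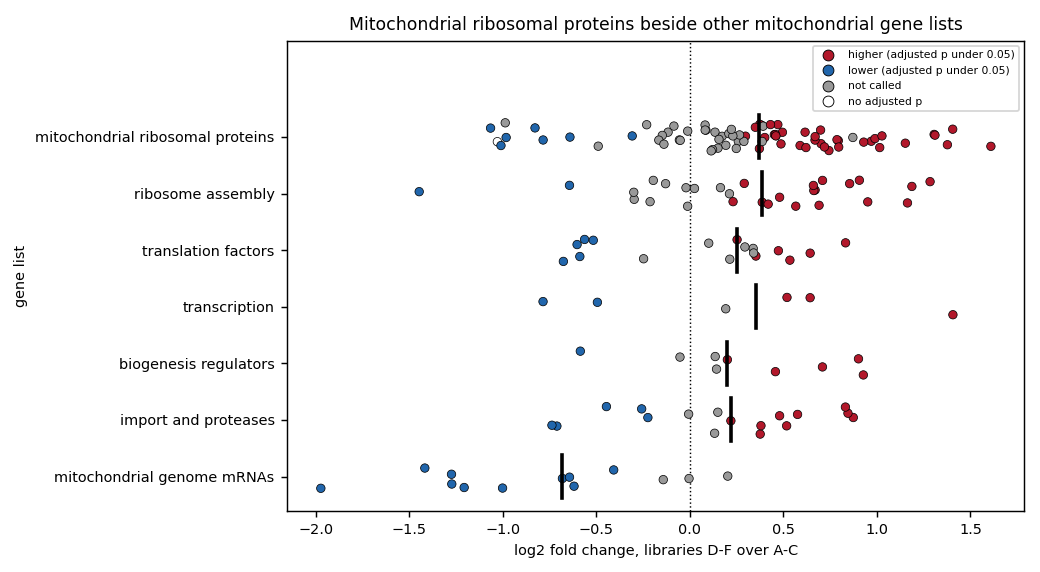
The authors' deposited log2 fold changes (horizontal axis, libraries D to F over A to C) of mitochondrial ribosomal protein genes and 6 other mitochondrial gene lists; each point is a gene, colour gives the call, and black bars mark the median of genes with an adjusted p. Medians lie between 0.20 and 0.39 in the nuclear lists and at -0.68 for the messenger RNAs of the mitochondrial genome.

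RefSeq start windows of 300 bases (250 before and 50 after a start, GRCh38.p14) were held for 67 of the 76 members, in 83 windows. The ETS core CCGGAAG, searched on both strands, occurred in 33 of these windows (39.8%), in 10.3% of all 35116 windows and in 14.0% of the windows of genes that had an adjusted p. The YY1 core AAGATGGCG occurred in 11 windows (13.3%), against 1.75% of all windows and 2.83% of those of tested genes. The NRF1 core GCGCANGCG, where N is any base, occurred in 15 (18.1%), against 7.52% and 10.7%. An ETS core can share its last 3 letters with a YY1 core, which was so in 0 of the 83 member windows and in 5 of all windows. A match describes these letters only and is not evidence of binding. Among members with the ETS core 15 of 29 were higher and 3 lower, and among those without it 18 of 37 were higher and 4 lower. For the YY1 core the counts were 7 of 11 higher with it and 26 of 55 without it, and for the NRF1 core 5 of 14 with it and 28 of 52 without it. Of the regions printed above, those of MRPL38, 2.48-fold higher, MRPS18A, 2.22-fold higher, and MRPL42, 2.09-fold lower, hold AAGATGGCG just after the start.

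Many of these genes start beside another coding gene on the opposite strand. By GENCODE 29, 21 members have such a neighbour with a value in the table, with starts at most 1000 bases apart or overlapping by at most 300, making 20 pairs. Both genes of a pair were called in the same direction in 2 pairs (10.0%) and in opposite directions in 3 (15.0%). Over all 883 such pairs of coding genes with values in the table, 198 (22.4%) were called in the same direction and 123 (13.9%) in opposite directions. In 6 pairs the member alone was called, in 5 the neighbour alone (counting MRPS11 as the neighbour of MRPL46), and in 4 neither was.

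Of the 3 pairs called in opposite directions, a share near that of all coding pairs, 2 hold a complex I subunit. MRPL47 was at 0.70 and NDUFB5, a complex I subunit whose start lies 36 bases away, at -0.43 (adjusted p = 0.000695 in the authors' deposited table). MRPL36 was at 0.46 and the complex I subunit NDUFS6, 34 bases away, at -0.46 (adjusted p = 0.000122). MRPL43 was at -0.83 and TWNK, the helicase of mitochondrial DNA, was at 0.92 (adjusted p = 1.07e-15); these 2 share exonic sequence. The pairs that rose together were MRPL49 with FAU (0.60), which encodes a cytosolic ribosomal protein, and MRPL57 with the spindle gene SKA3 (1.71). MRPL49 and FAU share exonic sequence as well. MRPL46 and MRPS11 are the pair made of 2 members, 34 bases apart; MRPS11 was higher (0.49) and MRPL46 was not called (0.29).

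**Figure D4:**
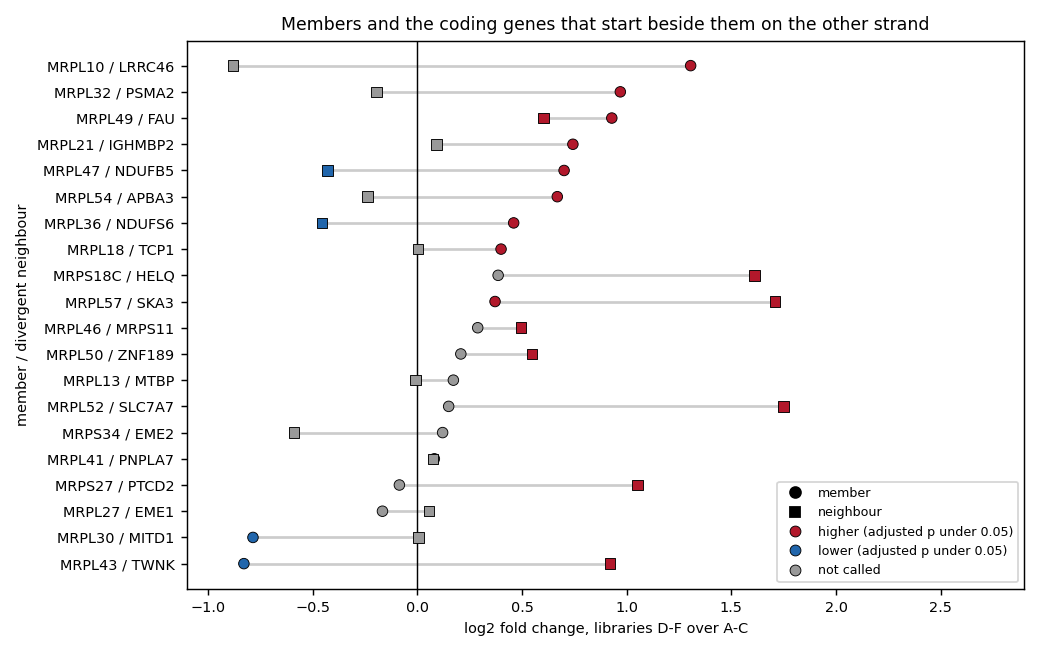
The authors' deposited log2 fold changes (horizontal axis, libraries D to F over A to C) of members (circles) and of the coding gene that starts beside each on the opposite strand (squares), 1 pair per line; colour gives the call, and MRPS11 is drawn as the neighbour of MRPL46. MRPL47 and MRPL36 lie right of 0 with their complex I neighbours left of it, and MRPL43 and TWNK lie the other way round.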

How the data were processed

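RNA-seq of 6 H1048 samples (3 ISP-I, 3 DMSO) was used as 1 deposited comparison of 3 against 3 libraries. Per the submitters' processing notes, the tools included DESeq2, HTSeq, STAR and Trimmomatic and the build was hg38; versions, settings, annotation, strandedness of counting and any shrinkage of fold changes are not stated there. Per the file headers, each gene's deposited values are its log2 fold change with the p-value before and after adjustment. The 36 columns of values per library in both tables match no sample's label and were not used, so depth and spread per library and leave-one-out fits are not given. The adjusted p-values equal a Benjamini-Hochberg adjustment over 15976 genes; 977 genes listed at exactly 1 were treated as having none.

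Members and lists were chosen with earlier results of these data known. Every member could be named. Full values were due for the 8 largest called changes in each direction and the 3 smallest p of each subunit. In other lists the 4 called genes with the smallest p were named, except that no messenger RNA of the mitochondrial genome was named. Other genes were chosen after their values were seen. Overlaps and neighbours came from GENCODE 29 (GRCh38), near-identical copies from BLAST 2.17.0 of member transcripts against those of other genes (at least 98% identity over 150 bases). Python 3.11.15, pandas 2.3.3 and numpy 2.4.6 were used; the adjustment was tested on simulated data. Alternatives were a threshold of 0.01, minimum folds of 1.5 and 2, adjustment over every gene, centring, placement in the ribosome, leaving out overlapping or copied genes, and shorter motifs.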

Additional observations from a re-analysis of the deposited data

How the results depend on the processing

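The medians of all members, of the large and of the small subunit kept their sign and moved by less than the spread among the genes under every alternative run (members with an adjusted p only, centring, placement with added proteins, and leaving out overlapping or near-identical genes). Counts moved by over 1.5 times in these cases. With a minimum of 1.5-fold, 23 members were higher (15 large, 8 small). With a minimum of 2-fold, chosen after seeing the data, 8 were higher (5 large, 3 small) and 2 lower (1 large). Without overlapping or near-identical genes, which leaves fewer genes to count, 20 were higher (14 large, 6 small) and 1, of the large subunit, was lower; the small subunit had 0 genes lower by the authors' DESeq2 values, and 1 at an unadjusted p under 0.05. With MRPS18A and MRPS30 moved to the large subunit, MRPS36 left out and 5 proteins with other symbols added, 2 small-subunit genes were lower, CHCHD1 being one of those added. Shorter motif cores raised the shares of member windows to 51.8% (ETS), 30.1% (YY1) and 30.1% (NRF1). They also raised the shares in windows of genes with an adjusted p, to 25.7%, 6.31% and 16.5%. With the main cores those background shares were 14.0%, 2.83% and 10.7%. No paired analysis was possible because no library letter could be matched to a replicate number. The precision of single genes cannot be judged beyond their p, since standard errors were not analysed here.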
